A study of Mus musculus with 13 samples.

Results

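The cytosolic ribosomal proteins are the protein part of the ribosomes that translate nuclear messages in the cytoplasm. Their genes were taken here as all probe sets whose annotated symbol begins with Rps or Rpl and goes on with a number, with p0 to p2 or with a alone, which leaves out pseudogenes, S6 kinases and paralogs with other endings. A gene with several probe sets was represented by the brightest, judged by its mean over the arrays of its table. The rule gave 66 of 20527 genes in the reporter table, 27 of the small and 39 of the large subunit, and 49 of 24111 genes in the table of single arrays, 21 of the small and 28 of the large subunit. In all, 69 genes were found, 46 of them in both tables, 20 in the reporter table alone and 3 (Rps27, Rpl35a and Rps13) in the table of single arrays alone. Each was listed by RefSeq as a protein-coding gene under the same symbol, and 8 more RefSeq genes that fit the pattern (Rpl23, Rpl24, Rpl30, Rpl31, Rpl36a, Rpl5, Rps16 and Rps21) were not analysed here.

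Eosinophils, granulocytes that live in large numbers in the gut wall, were sorted from the small intestinal lamina propria (siLP) of mice. The first experiment had 5 samples of mCherry+ and 5 samples of mCherry- eosinophils, all from Clec4a4-KI mCherry mice, in which the reporter was knocked into Clec4a4, the gene of a C-type lectin receptor. The second experiment had 1 array each of Clec4a4- eosinophils of Ahr KO mice, Clec4a4+ eosinophils of WT mice and Clec4a4- eosinophils of WT mice, Ahr being the aryl hydrocarbon receptor, a ligand-activated transcription factor. The first comparison asks which genes mark the Clec4a4+ and Clec4a4- subsets, and the second which of them depend on Ahr. Strain, sex, age, the Ahr allele and the number of mice pooled are not given in the sources used here, and no label ties the replicate numbers to animals, so p-values measure only the spread between these samples.

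A ribosome has a small subunit, which reads the message, and a large subunit, which joins the amino acids. Cells make the proteins of both in equal numbers, and their messages, which in mammals typically start with a run of pyrimidines (a 5′ terminal oligopyrimidine or TOP tract), are translated or held back together under the kinase mTORC1. Synthesis of ribosomes is also known to follow MYC, and in granulocytes it is high in precursors and low in mature cells.

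RefSeq (assembly GRCm38.p6) held the bases around the annotated start for 50 of the 69 genes, in 59 windows of 250 bases before to 50 after the start. A TOP tract, taken here as a C at the start that opens a run of at least 5 C or T bases, was present in 12 of the 59 windows (20.3%), from 12 genes, against 2.51% of 32851 windows of all genes. The sequences below cover 25 bases before and 20 after the start of members near the lower end of the reporter comparison, printed to show the tract. Capitals mark the run of C and T at the start.

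Rps18, chr17:33955646-33955690, minus strand: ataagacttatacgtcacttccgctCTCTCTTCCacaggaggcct
Rps10, chr17:27635225-27635269, minus strand: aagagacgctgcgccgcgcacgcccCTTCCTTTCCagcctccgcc
Rpl14, chr9:120571492-120571536, plus strand: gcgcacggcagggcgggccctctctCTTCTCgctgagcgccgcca
Rps15a, chr7:118116128-118116172, minus strand: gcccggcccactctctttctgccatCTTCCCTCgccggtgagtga

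Windows of 3 other members near the lower end held no such run at the annotated start and are printed for contrast, so they have no capitals.

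Rps3, chr7:99483690-99483734, minus strand: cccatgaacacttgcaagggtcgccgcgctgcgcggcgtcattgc
Rplp0, chr5:115559442-115559486, plus strand: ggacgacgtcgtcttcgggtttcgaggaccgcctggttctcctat
Rpl13, chr8:123102325-123102369, plus strand: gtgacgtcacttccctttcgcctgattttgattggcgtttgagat

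An annotated start a few bases away from the one used in these cells would hide a tract, so the absence of a match describes these windows alone. Searched on both strands of the whole window, CTTCCG was found in 59.3% of the members' windows against 16.9% of all windows, and CTTTCC in 45.8% against 26.6%. Either word can share bases with a TOP tract, as CTTTCC does in the tract of Rps10.

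RNA was measured on microarrays as log2 intensity, and all values below are on that scale unless a fold is named. Arrays of the reporter table correlated with each other at 0.92 to 0.977 and those of the other table at 0.983 to 0.985 over all genes. Clec4a4 averaged 9.18 ± 0.62 on mCherry+ arrays and 7.52 ± 0.62 on mCherry- arrays (SD, n = 5 each), with an adjusted p of 0.0803 by limma without and 0.00184 with the replicate number as a block. Of the eosinophil markers measured, 8 of 10 lay above the median of the reporter table, and so did 15 of 15 epithelial markers. The array labelled Ahr KO Clec4a4- gave 11.12 for Ahr, against 11.11 on the WT Clec4a4+ and 11.08 on the WT Clec4a4- array, so Ahr itself did not separate that array from the others. Whether its probes lie outside the deleted part was not tested. Tiparp, a known target of the receptor, was at 8.01 on that array, against 11.52 and 11.57 on the WT Clec4a4+ and WT Clec4a4- arrays. Other known targets differed less from the WT Clec4a4- array. Ahrr was at 4.44, against 7.14 and 4.98 on the WT Clec4a4+ and WT Clec4a4- arrays, and Cyp1b1 at 4.46, against 4.92 and 4.70.

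In the reporter mice, no cytosolic ribosomal protein gene passed the test between mCherry+ and mCherry- eosinophils, and nearly all of them leaned the same way by a small amount. By sign, 61 of 66 members were lower on average in mCherry+ cells, 26 of 27 in the small and 35 of 39 in the large subunit, against 52.5% of all genes. The median difference, mCherry+ minus mCherry-, was -0.11 over the members, or 1.08-fold lower in mCherry+ cells, and -0.01 over all genes. Differences of single members ran from -0.50 to 0.10, with standard errors of 0.08 to 0.23. In bulk samples such as these, fewer cells of a type and less RNA per cell cannot be told apart.

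By limma with Benjamini-Hochberg adjustment over all 20527 genes, 0 of 66 members had an adjusted p under 0.05, while 0.375% of all genes did. The lowest adjusted p among the members was 0.474, for Rps19. With the replicate number as a block, 0 of 66 members passed against 1.82% of all genes, and the lowest adjusted p was 0.103, for Rpl10a. At an unadjusted p under 0.05, 2 members were lower and 0 higher without the block, where 3.6% of all genes were lower and 3.8% higher. With the block, 16 were lower and 0 higher, where 5.69% of all genes were lower and 6.25% higher. The groups overlapped for every member, whereas 1.08% of all genes had every mCherry+ array below every mCherry- array and 0.843% every one above. By size, 41 members were lower by at least 0.1, against 28.8% of all genes, and 25 lay within 0.1 of 0. Bright members leaned alike: of those with a mean log2 intensity of at least 10, 55 of 59 were lower by sign, against 52.7% of the 402 genes that bright.

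**Figure D1:**
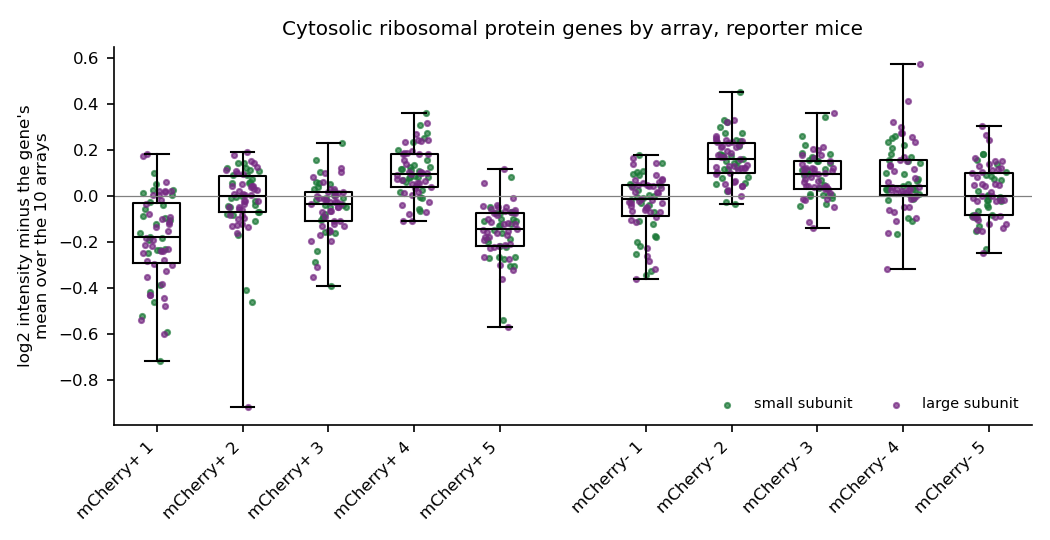
Log2 intensity of each of the 66 members on each reporter array, minus that gene's mean over the 10 arrays (vertical axis), with mCherry+ arrays on the left and mCherry- arrays on the right. Points are genes, green for the small and purple for the large subunit, boxes show quartiles and whiskers the full range. The array means of the members lay between 10.86 and 11.15 on mCherry+ arrays and between 11.01 and 11.21 on mCherry- arrays, so the groups overlap, with mCherry+ array 4 the highest of its group.

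Seen array by array, most members varied together, and the arrays of a group differed about as much as the groups did. Their mean was 10.86, 11.03, 11.00, 11.15 and 10.89 on mCherry+ arrays 1 to 5, against 11.01, 11.21, 11.14, 11.13 and 11.06 on mCherry- arrays 1 to 5. The group means were 10.99 ± 0.12 for mCherry+ and 11.11 ± 0.08 for mCherry- arrays (SD, n = 5 each), a difference of -0.12. The ranges overlap, with mCherry+ array 4 above all mCherry- arrays except array 2. Between arrays of the same group, the median difference over the members reached 0.27 among the 10 pairings of mCherry+ arrays and 0.17 among those of mCherry- arrays, with up to 64 and 56 of the 66 members on one side. A common direction in most members was thus also seen between replicates.

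The replicate numbers are shared by the groups, and arrays of the same number deviated together. In pairs 1, 2, 3 and 5 the median difference over the members was -0.15, -0.16, -0.11 and -0.15, with 51, 60, 58 and 55 members lower in mCherry+ cells. In pair 4 the median was 0.03 and 22 members were lower. The share of all genes lower in mCherry+ cells was 49.5%, 50.6%, 55.1%, 53.2% and 47.4% in pairs 1 to 5. In all, 13 members were lower in 5 of 5 pairs, 33 in 4 of 5, and 1 (Rps29) was higher in all 5. Over all 20527 genes, 6.01% were lower and 5.94% higher in every pair, and 3671 genes were lower in 4 of 5.

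**Figure D2:**
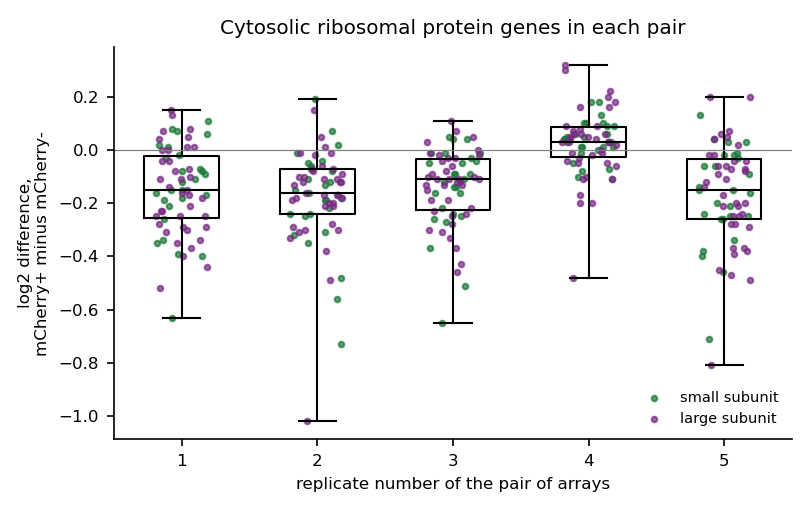
Log2 difference, mCherry+ minus mCherry-, of each of the 66 members in pairs 1 to 5 (horizontal axis, the replicate number that both arrays carry). Points are genes, coloured by subunit, boxes show quartiles and whiskers the full range. Pairs 1, 2, 3 and 5 have medians of -0.15, -0.16, -0.11 and -0.15, and pair 4 has 0.03.

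The small and large subunits leaned alike. The median difference was -0.11 over the small and -0.14 over the large subunit members. Per array, the mean of the small minus that of the large subunit was 0.092 ± 0.015 on mCherry+ and 0.090 ± 0.017 on mCherry- arrays (SD, n = 5 each). The level of this gap has no meaning of its own, since it sets different probes side by side, but its difference between groups does not depend on that. That difference was 0.002, with an SD of 0.012 over the 5 pairs, so it was smaller than the spread between pairs. It was 0.015, -0.008, -0.009, 0.016 and -0.002 in pairs 1 to 5, with no common sign.

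**Figure D3:**
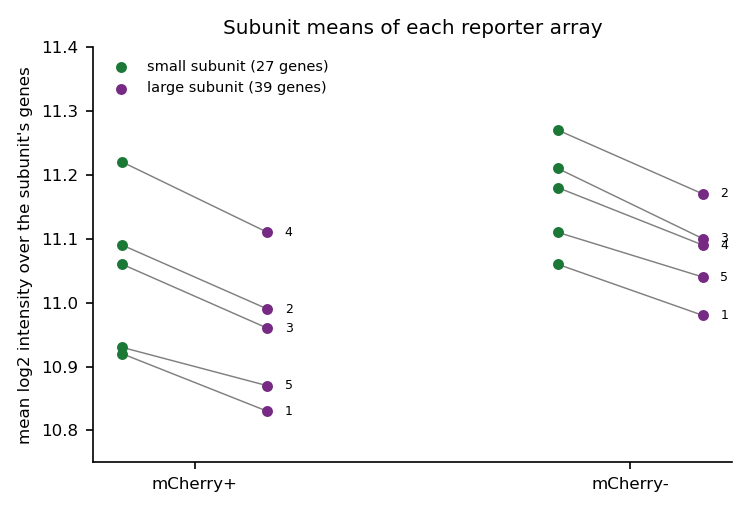
Mean log2 intensity of the 27 small subunit genes (green) and the 39 large subunit genes (purple) on each reporter array, with mCherry+ arrays on the left and mCherry- arrays on the right. Lines join the subunits of an array, numbers are replicate numbers, and the vertical axis does not start at 0. The lines run nearly parallel: small minus large was 0.07 to 0.11 in both groups.

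In the small subunit, Rps19, which is needed to mature the small subunit and is mutated in a human congenital anaemia, had the largest difference. It read 8.64, 9.05, 8.77, 9.47 and 8.62 on mCherry+ arrays 1 to 5, against 9.27, 9.61, 9.42, 9.41 and 9.34 on mCherry- arrays 1 to 5. Only mCherry+ array 4 reached the mCherry- range, and the other 4 mCherry+ arrays lay below all mCherry- arrays. Rps19 averaged 8.91 ± 0.36 on mCherry+ and 9.41 ± 0.13 on mCherry- arrays (SD, n = 5 each), a difference of -0.50 (SE 0.18, adjusted p = 0.474 by limma, 0.127 with the replicate block). Its 4 probe sets differed by -0.51 to -0.42.

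Rps3 and Rps2 lie where the message enters the small subunit. Rps3 read 10.15, 10.39, 10.11, 10.48 and 10.13 on mCherry+ arrays 1 to 5, against 10.50, 10.64, 10.62, 10.45 and 10.50 on mCherry- arrays 1 to 5. As for Rps19, mCherry+ array 4 alone reached into the mCherry- range. The difference was -0.29 (SE 0.12, adjusted p = 0.555 by limma, 0.211 with the block). Rps2 was lower in 5 of 5 pairs, at 11.43, 11.56, 11.33, 11.43 and 11.30 on mCherry+ arrays, against 11.51, 11.60, 11.60, 11.53 and 11.56 on mCherry- arrays, a difference of -0.15. Only mCherry+ array 2 lay within the mCherry- range.

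Of the remaining small subunit genes low in mCherry+ cells, Rps18 read 10.44, 10.96, 11.02, 11.28 and 10.91 on mCherry+ arrays, against 10.78, 11.27, 11.18, 11.29 and 11.17 on mCherry- arrays 1 to 5. It was lower in each pair but both arrays of number 1 were low, so the groups overlapped, with a difference of -0.22 (SE 0.16, adjusted p = 0.892 by limma, 0.236 with the block). The difference was -0.18 for Rps15a and -0.15 for Rps10, which is known to be ubiquitylated on collided ribosomes. Rps15a was among the dimmest members, at 6.60 ± 0.22 on mCherry+ and 6.78 ± 0.16 on mCherry- arrays (SD, n = 5 each).

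At the other end of the small subunit, Rps29, a small zinc-binding protein, was the one member higher in each pair. It read 13.16, 13.23, 13.16, 13.10 and 13.04 on mCherry+ arrays 1 to 5, against 13.10, 13.16, 13.11, 13.01 and 13.01 on mCherry- arrays 1 to 5. The ranges overlap over most of their length, and the difference was 0.06 (SE 0.08, adjusted p = 0.963 by limma, 0.586 with the block). The others near 0 were Rpsa, which has also been described as a laminin receptor precursor, at -0.00, Rps20 at -0.01, Rps9 and Rps27a at -0.04, and Rps14 at -0.06. Rps27a is made as a fusion with ubiquitin.

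In the large subunit, Rpl14 had the largest difference and the largest error. It read 7.72, 6.74, 7.78, 7.75 and 7.09 on mCherry+ arrays 1 to 5, against 7.59, 7.76, 8.02, 8.23 and 7.90 on mCherry- arrays 1 to 5. The low values of mCherry+ arrays 2 and 5 made most of the difference, and the other 3 mCherry+ arrays lay inside the mCherry- range. Rpl14 averaged 7.41 ± 0.47 on mCherry+ and 7.90 ± 0.24 on mCherry- arrays (SD, n = 5 each), a difference of -0.49 (SE 0.23, adjusted p = 0.69 by limma, 0.314 with the block). It had a single probe set.

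Rpl10a, the protein of the mobile L1 stalk beside the exit site for transfer RNA, was lower in 5 of 5 pairs. It read 10.86, 11.26, 11.48, 11.46 and 11.22 on mCherry+ arrays 1 to 5, against 11.08, 11.64, 11.60, 11.67 and 11.70 on mCherry- arrays 1 to 5. Without the arrays of number 1, which were low in both groups, the remaining 4 mCherry+ values lay below the remaining mCherry- values. The difference was -0.28 (SE 0.16, adjusted p = 0.794 by limma). With the block its SE was 0.07 and its adjusted p by limma 0.103, the lowest of the members. Fitted without the arrays of number 1, its adjusted p was 0.517, and 0.199 with the block.

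The stalk that recruits translation factors to the large subunit consists of Rplp0 at its base and of Rplp1 and Rplp2, with Rpl12 beside the base. Rplp0 read 11.06, 11.18, 10.97, 11.33 and 11.27 on mCherry+ arrays 1 to 5, against 11.35, 11.40, 11.40, 11.27 and 11.54 on mCherry- arrays 1 to 5. Its difference was -0.23 (SE 0.11, adjusted p = 0.681 by limma, 0.253 with the block), and mCherry+ arrays 4 and 5 reached the mCherry- range. Its partners differed less, by -0.10 for Rpl12, -0.02 for Rplp2 and -0.01 for Rplp1, none of which passed the test.

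Among the other large subunit genes, Rpl6 differed by -0.23 and Rpl28 by -0.18, and both were lower in 5 of 5 pairs. With the block, Rpl28 came after Rpl10a and Rps19 by adjusted p, at 0.138 by limma, its pair differences lying between -0.25 and -0.15. Rpl17, at the mouth of the tunnel through which the new protein leaves, differed by -0.21, and Rpl13, Rpl19, and Rpl3, a protein close to the catalytic centre, by -0.20 each. At the upper end stood Rpl34 at 0.10, Rpl27a at 0.04, Rpl37 at 0.02, Rpl10 at 0.00, and Rpl41 at -0.01. Rpl34 read 8.91, 8.92, 8.66, 8.74 and 8.66 on mCherry+ arrays 1 to 5, against 8.77, 8.77, 8.59, 8.41 and 8.85 on mCherry- arrays 1 to 5. It was higher in 4 of 5 pairs, within overlapping ranges (SE 0.14, adjusted p = 0.97 by limma, 0.825 with the block).

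**Figure D4:**
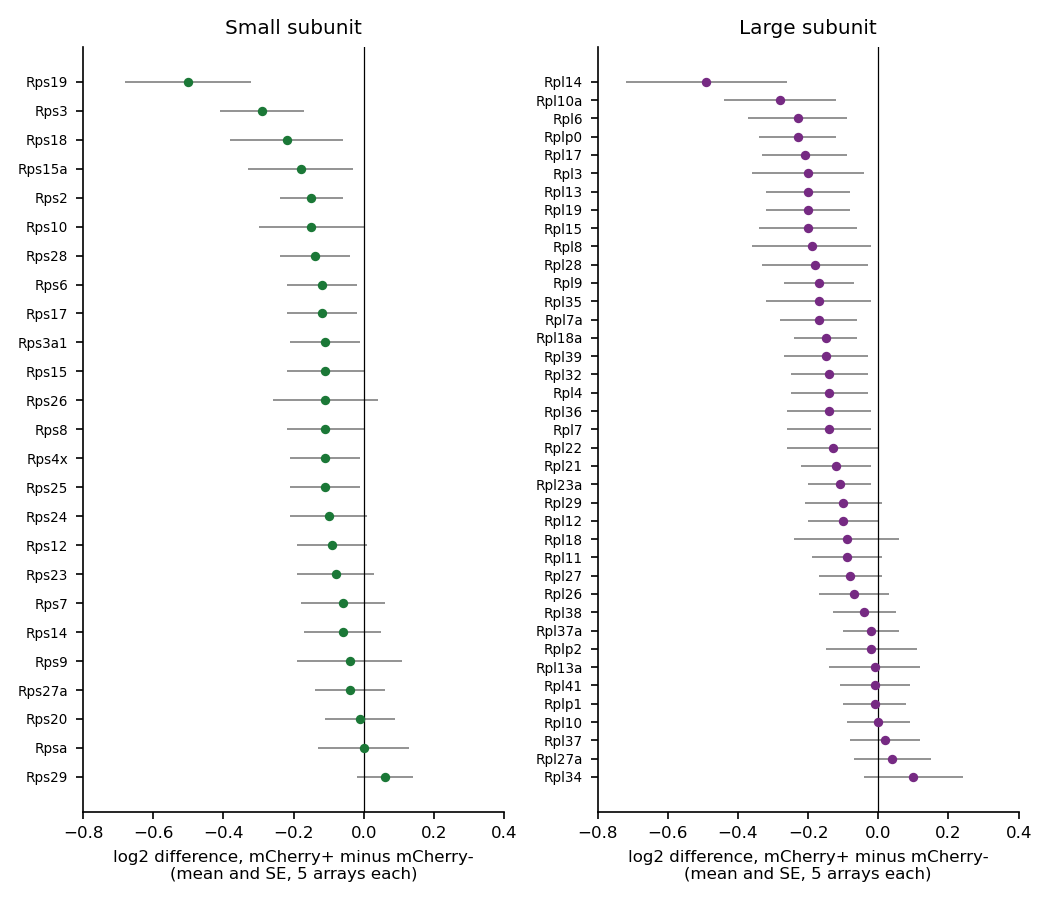
Log2 difference, mCherry+ minus mCherry-, of each member (points) with its standard error from the fit without block (bars), 5 arrays each, ordered within the small subunit (left, 25 of its 27 genes drawn) and the large subunit (right, 39 genes). Points lie left of 0 for 23 of the small and 35 of the large subunit genes drawn, and Rpsa lies at -0.00. Rps19 at -0.50 and Rpl14 at -0.49 stand farthest out, and none of the differences passed the test.

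The probe sets left aside leaned the same way. All 313 probe sets of the 66 members were counted, and 302 were lower by sign in mCherry+ cells, with a median of -0.13. Of the 51 members with several probe sets, 50 had all of them on one side. The widest disagreement was in Rpsa, whose 5 probe sets differed by -0.35 to -0.00, and Rpl29, with 27 probe sets, ran from -0.23 to -0.09. Ribosomal protein genes have many processed pseudogenes, and probe sets with near-identical targets may read the same RNA, so the probe sets of a gene are not independent and the value of a single member is uncertain to that extent.

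Across the 10 reporter arrays, most members varied together. The correlation of a member with the mean of the other 65 had a median of 0.78 and was over 0.5 for 50 of 66 members, as a description over arrays that share 1 normalization. Most like the mean of the others were Rps19 at 0.938, Rps23 at 0.917 and Rps28 at 0.916. Least like it were Rpl34 at -0.355, Rps29 at -0.0821 and Rpl22 at -0.0263. Rpl34 and Rps29 were also the members with the highest differences between the groups.

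Divided by the start of the gene, the 10 measured members with a TOP tract at the annotated start had a median difference of -0.18, and all 10 were lower by sign. The 37 with a window and no such tract had a median of -0.11, with 33 lower, and the 19 without a window a median of -0.12, with 18 lower. The 4 genes printed above with a tract lay between -0.49 and -0.15, and the 3 printed without one between -0.29 and -0.20. All were taken from the lowest members of their subunit in this comparison, so their overlap does not compare genes with and without a tract.

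Of 234 genes of the wider translation machinery measured in 8 lists, 0 passed the test without the replicate block, where 0.375% of all genes did. With the block 3 passed, where 1.82% of all genes did, so the lists did not stand out by number. All 3 were of the 22 genes that control growth through mTORC1 and MYC. Myc, the transcription factor that drives ribosome synthesis, read 6.56, 6.20, 6.24, 8.13 and 5.96 on mCherry+ arrays 1 to 5, against 8.28, 8.27, 8.62, 8.23 and 8.83 on mCherry- arrays 1 to 5. Every mCherry+ array lay below every mCherry- array, and mCherry+ array 4 lay closest to them. On that array the mean of the ribosomal protein genes was also the highest of its group. So were the means of the epithelial markers and of the stromal and endothelial markers. A link between Myc and the ribosomal protein genes was not tested. The difference in Myc was -1.83 (SE 0.36, adjusted p = 0.0611 by limma, 0.0365 with the block). Without mCherry+ array 4 the difference was -2.21, with an adjusted p of 0.000699 by limma. Leaving out each of the other 9 arrays gave -1.88 to -1.67 with adjusted p between 0.0955 and 0.18.

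Max and Mxd1 also passed with the block. Max, the obligate partner of Myc, was higher in mCherry+ cells by 0.64 (adjusted p = 0.155 by limma, 0.0305 with the block). Mxd1, which competes with Myc for Max, was lower, at -0.68 (adjusted p = 0.0611 by limma, 0.0129 with the block). Of 37 ribosome assembly genes, none passed with or without the block, with a median of -0.05. The largest difference there was that of Gnl3, which encodes nucleostemin, at -0.84 (adjusted p = 0.153 by limma, 0.113 with the block), followed by Nop58, a box C/D nucleolar protein, at -0.75 (adjusted p = 0.371 and 0.182).

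None of the 18 genes of RNA polymerase I and its factors passed in either fit. Their median was -0.04, with Taf1a at 0.58 (adjusted p = 0.39 by limma, 0.0638 with the block) and Polr2h, a subunit shared by the nuclear polymerases, at -0.57. Of 39 initiation factors none passed, with a median of -0.08, the largest differences being -0.39 for Eif2s1 and -0.37 for Eif3d. Of 13 elongation factors and other genes with TOP messages none passed, with a median of -0.08 and 11 lower by sign, Nap1l1 standing at 0.62 and Eef1g at -0.28.

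The 20 cytosolic tRNA synthetases had a median of -0.09 with none passing, Iars at -0.53 and Gars at -0.42 differing most. The 76 mitochondrial ribosomal proteins, which belong to another ribosome, also had none passing and a median of -0.12, with 49 lower by sign, and Mrpl13 at -0.79 and Mrpl46 at -0.76 differed most. Of 9 measured ribosomal protein genes and paralogs outside the symbol pattern, none passed and 6 were lower by sign, with Rpl7l1 at -0.43, Rps27l at -0.35, Rps4l at -0.22 and Rpl10l at 0.32. Fau and Gnb2l1, which encode a small subunit protein and the ribosome-bound scaffold Rack1, differed by -0.15 and -0.16.

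Of 10 neutrophil markers, S100a8 and S100a9, which encode calprotectin, were lower in mCherry+ cells, at -5.27 and -5.03 (adjusted p = 0.00105 and 0.00348 by limma), and the other 8 did not pass. The mean over all 10 was 5.83 to 6.01 on mCherry+ arrays and 6.61 to 7.31 on mCherry- arrays. Without S100a8 and S100a9 it was 5.67 to 6.07 on mCherry+ and 5.81 to 6.06 on mCherry- arrays, and those 8 markers differed by 0.04 on average, from -0.19 for Ltf to 0.51 for Cxcr2.

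Of 10 eosinophil markers, Ear1, a granule ribonuclease, was lower in mCherry+ cells, at -1.23 (adjusted p = 0.0485 by limma, 0.00862 with the block), and Prg2, the major basic protein, passed with the block alone, at -1.02 (adjusted p = 0.681, 0.0416 with the block). Of these 10, 5 were higher and 5 lower by sign in mCherry+ cells, with a median of -0.0. The eosinophil list averaged 6.62 to 7.40 on mCherry+ and 6.59 to 7.72 on mCherry- arrays, lowest on the arrays of number 4 in both groups. The mean over 10 stromal and endothelial markers was 5.90 to 7.16 on mCherry+ and 5.83 to 6.97 on mCherry- arrays, higher in mCherry+ cells in 5 of 5 pairs by 0.186 on average. It was highest on the arrays of number 4 in both groups, and Pecam1 passed with the block alone, at 0.78 (adjusted p = 0.439 by limma, 0.0113 with the block). Of 12 macrophage and dendritic cell markers, 7 were higher and 5 lower by sign. Itgax was the only one to pass, with the block alone, at 0.91 (adjusted p = 0.257 by limma, 0.00348 with the block). Cd14 was lower in 5 of 5 pairs, at -2.18, but did not pass (adjusted p = 0.352 by limma, 0.164 with the block). The mean over 15 epithelial markers was 8.27 to 10.77 on mCherry+ and 8.16 to 10.91 on mCherry- arrays, with the arrays of number 1 lowest in both groups, the arrays on which the mean of the members was also lowest in each group. Leaving out both arrays of number 1 left the members' median at -0.11, with 59 of 66 lower by sign. The arrays left out were those lowest in epithelial markers, so this does not test the part of epithelial cells. The part of these cell types in the members' differences was not tested.

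On the 3 single arrays, the members were higher in the cells labelled Ahr KO Clec4a4- than in either WT sample. The array means over the 49 members were 8.33 for Ahr KO Clec4a4-, 7.92 for WT Clec4a4+ and 8.01 for WT Clec4a4- cells. The Ahr KO Clec4a4- array was the highest of the 3 for 43 of 49 members, and of all genes for 37.1%. There is 1 array a group, so these differences have no replicate check and no test, and the 3 comparisons share arrays. They are given side by side and are not independent of each other.

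For Ahr KO Clec4a4- against WT Clec4a4- cells, 44 of 49 members were higher, against 48.5% of all genes, with a median difference of 0.34 or 1.26-fold, and 0.00 over all genes. Of the members, 6 (12.2%) were at least 1.5-fold higher, against 3.17% of all genes, and 0 at least 1.5-fold lower, against 3.2%. For Ahr KO Clec4a4- against WT Clec4a4+ cells, 46 were higher, against 47.7% of all genes, with a median of 0.41 or 1.33-fold. There 17 (34.7%) were at least 1.5-fold higher, against 2.82% of all genes, and 1, Rpl3, was lower by that much, against 2.37%. The 19 members with a mean of at least 10 were all higher on the Ahr KO Clec4a4- array in both comparisons, while 41.0% and 57.2% of the 332 genes that bright were. With the mean of a gene's probe sets, 45 and 46 members were higher in these comparisons. Then 4 and 12 were at least 1.5-fold higher, where 6.18% and 5.01% of all genes were past 1.5-fold in either direction. Among the 21 members with several probe sets, some had signs that differed. Against WT Clec4a4- cells, probe sets ran from -0.26 to 0.43 for Rpl7a and from -0.21 to 0.39 for Rps18.

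For WT Clec4a4+ against WT Clec4a4- cells, the difference was smaller and ran the way it did between mCherry+ and mCherry- cells: 33 of 49 members were lower, against 45.6% of all genes, with a median of -0.15. Of all genes with a mean of at least 10, however, 63.9% were lower in that comparison, with a median of -0.12, close to the -0.13 of the 19 members that bright. Only Rpl3 was at least 1.5-fold higher, against 3.0% of all genes, and 0 members were at least 1.5-fold lower, against 3.59%.

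**Figure D5:**
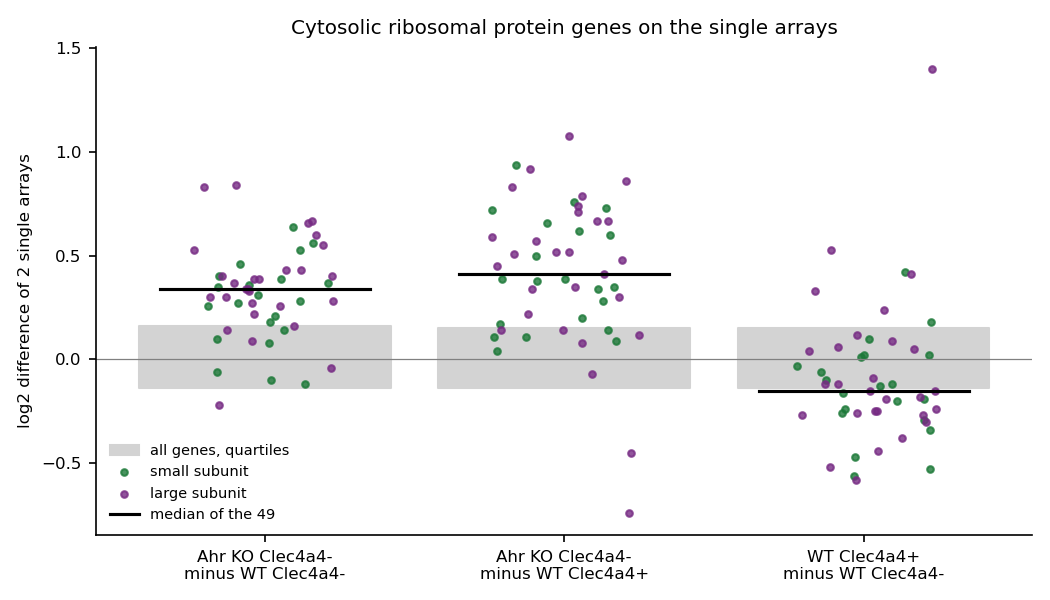
Log2 difference of each of the 49 members (points, green for the small and purple for the large subunit) between single arrays, for Ahr KO Clec4a4- minus WT Clec4a4-, Ahr KO Clec4a4- minus WT Clec4a4+ and WT Clec4a4+ minus WT Clec4a4-. Black lines are medians (0.34, 0.41 and -0.15) and grey boxes span the quartiles of all genes. The first 2 sets lie mostly above 0, with Rpl3 lowest at -0.74 in the second and highest at 1.40 in the third.

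Both subunits took part on the single arrays as well. Against WT Clec4a4- cells, the median for Ahr KO Clec4a4- cells was 0.28 over the small and 0.35 over the large subunit. Against WT Clec4a4+ cells it was 0.38 and 0.50. Between WT Clec4a4+ and WT Clec4a4- cells the medians were -0.13 and -0.15. The mean of the small minus the large subunit differed between the arrays by -0.10, -0.012 and -0.088 in these 3 comparisons, in that order, with no replicate to set it against.

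Rpl13, a large subunit protein, had the largest difference of the Ahr KO Clec4a4- cells from both WT samples, at 8.86 in Ahr KO Clec4a4-, 7.77 in WT Clec4a4+ and 8.02 in WT Clec4a4- cells. Its differences were 0.84 from WT Clec4a4- and 1.08 from WT Clec4a4+ cells. Rpl6 followed against WT Clec4a4- cells, at 8.59 in Ahr KO Clec4a4-, 8.29 in WT Clec4a4+ and 7.76 in WT Clec4a4- cells. There the WT Clec4a4+ array stood nearer to the Ahr KO Clec4a4- array than to the WT Clec4a4- array.

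Next among the differences from WT Clec4a4- cells came Rpl37a at 0.67, Rpl3 at 0.66 and Rps28 at 0.64. Rps28 was bright, at 10.55 in Ahr KO Clec4a4-, 9.79 in WT Clec4a4+ and 9.92 in WT Clec4a4- cells. With the mean of its probe sets it was 0.31 higher in Ahr KO Clec4a4- than in WT Clec4a4- cells. Against WT Clec4a4+ cells, Rpsa, Rpl12, Rplp0 and Rpl13a came after Rpl13, at 0.94, 0.92, 0.86 and 0.83. Rpl13a is known in human cells to leave the ribosome and silence inflammatory messages after interferon-gamma.

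The stalk genes Rplp0 and Rpl12, read by their brightest probe sets, showed the order Ahr KO Clec4a4- over WT Clec4a4- over WT Clec4a4+. Rplp0 read 7.07 in Ahr KO Clec4a4-, 6.21 in WT Clec4a4+ and 6.79 in WT Clec4a4- cells, and Rpl12 read 8.57, 7.64 and 8.17 in the same order of samples. Each had a second probe set without that order. With the mean of both, the difference between Ahr KO Clec4a4- and WT Clec4a4+ cells was 0.37 for Rplp0 and 0.51 for Rpl12, and that between WT Clec4a4+ and WT Clec4a4- cells -0.27 and -0.13. In all, 29 of 49 members had that order, against 13.6% of all genes. Rps24 and Rps10 were also among the 5 lowest in WT Clec4a4+ against WT Clec4a4- cells, at -0.56 and -0.47, with Rplp0 at -0.58, Rpsa at -0.53 and Rpl12 at -0.52. With the mean of its probe sets, Rpsa was at -0.35 in that comparison.

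Rpl3 went against the family, at 6.82 in Ahr KO Clec4a4-, 7.56 in WT Clec4a4+ and 6.17 in WT Clec4a4- cells. It was 1.40 higher in WT Clec4a4+ than in WT Clec4a4- cells, whereas on the reporter arrays it was -0.20 in mCherry+ against mCherry- cells. Its other probe set gave 0.43 for WT Clec4a4+ minus WT Clec4a4- and 0.04 for Ahr KO Clec4a4- minus WT Clec4a4+, and the mean of both 0.91 and -0.35, past 1.5-fold in the first comparison alone. After it, Rpl6 at 0.53, Rps14 at 0.42, Rplp2 at 0.41 and Rpl37a at 0.33 were highest in WT Clec4a4+ against WT Clec4a4- cells. Rplp2, the acidic stalk protein, was dim on these arrays, at 4.40 in Ahr KO Clec4a4-, 4.85 in WT Clec4a4+ and 4.44 in WT Clec4a4- cells, where the table median was 4.79.

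Among the members lowest in Ahr KO Clec4a4- against WT Clec4a4- cells were Rpl39 at -0.22, Rps27 at -0.10, Rps13 at -0.06 and Rplp2 at -0.04. Rpl39 lines the exit tunnel of the large subunit and read 6.20 in Ahr KO Clec4a4-, 6.27 in WT Clec4a4+ and 6.42 in WT Clec4a4- cells. With the mean of its 3 probe sets in place of the brightest, its difference from WT Clec4a4- cells was 0.45, and that of Rps13, with 2 probe sets, was 0.56. Against WT Clec4a4+ cells the lowest were Rpl3 at -0.74, Rplp2 at -0.45, Rpl39 at -0.07, Rps14 at 0.04 and Rpl41 at 0.08. Rpl41 was bright on all 3 arrays, at 12.46 in Ahr KO Clec4a4-, 12.38 in WT Clec4a4+ and 12.32 in WT Clec4a4- cells.

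Of the 49 members, 7 had a mean under the table median of 4.79, among them Rps19 at 4.65 and Rps29 at 3.98. Rps19 read 4.82 in Ahr KO Clec4a4-, 4.49 in WT Clec4a4+ and 4.65 in WT Clec4a4- cells, and Rpl14 read 10.51, 9.72 and 9.98. Both had the lowest value in WT Clec4a4+ cells, but levels near the floor of the table compress differences, and levels of different probes cannot be set against each other. The tables come from different array models, so levels of a gene are not compared between them.

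Of the 46 members in both tables, 31 were lower both in mCherry+ against mCherry- cells and in WT Clec4a4+ against WT Clec4a4- cells, 14 were lower in the first comparison alone, 0 in the second alone, and 1 was higher in both. Nearly all of the 46 were lower in the first comparison, so the 31 were simply those lower in the second. That count therefore does not show that the 2 comparisons agree gene by gene. The sizes did not run together: across the 46 genes, which are not independent replicates, Pearson's r was 0.0602 and Spearman's rho 0.159.

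The other translation lists had smaller medians than the members in the comparisons with Ahr KO Clec4a4- cells. In Ahr KO Clec4a4- against WT Clec4a4- cells, the medians were 0.08 over 37 initiation factors, 0.14 over 12 elongation factors and other TOP messages, 0.09 over 38 ribosome assembly genes, 0.08 over 20 tRNA synthetases and 0.04 over 71 mitochondrial ribosomal proteins. Against WT Clec4a4+ cells they were 0.17, 0.37, 0.16, 0.23 and 0.00 for the same lists. Over the 10 measured ribosomal protein genes and paralogs outside the symbol pattern, the median against WT Clec4a4- cells was -0.00, with 5 of 10 higher. Of these, Fau and Gnb2l1 were higher in Ahr KO Clec4a4- than in WT Clec4a4- cells by 0.08 and 0.59, while Rps4l was at -0.31 and Rps27l at -0.17. Myc was at 7.98 in Ahr KO Clec4a4-, 6.02 in WT Clec4a4+ and 7.20 in WT Clec4a4- cells. That order of arrays was shared by 29 members and by 13.6% of all genes, and a link between Myc and the members was not tested. Eosinophil markers averaged 8.23 in Ahr KO Clec4a4-, 7.82 in WT Clec4a4+ and 8.20 in WT Clec4a4- cells. In the same order of samples, epithelial markers averaged 5.80, 5.63 and 5.82, and neutrophil markers 5.91, 5.42 and 5.76. T cell, NK cell and ILC markers averaged 5.20 in Ahr KO Clec4a4-, 5.39 in WT Clec4a4+ and 4.92 in WT Clec4a4- cells, and Cd3e and Cd8b1 were higher by 1.25 and 1.54 in Ahr KO Clec4a4- than in WT Clec4a4- cells. Their part in the members' differences was not tested.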

How the data were processed

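All values are deposited log2 intensities, those of 10 reporter arrays in 1 table and those of 3 single arrays in another. Per the submitters' processing notes the authors made them with RMA, which corrects background, brings arrays to 1 distribution and summarises probes. Since RMA gives all arrays of a table the same distribution, a difference is relative to the other genes of an array. Per the labels' protocols, RNA came from RNeasy Micro columns and 2 ng was amplified with WT-Ovation PicoSL, which can add noise at low levels. The series' value table held the same values within 5e-09. For arrays, their number limits the precision.

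Genes were taken from the symbol in each row's description. Of 35556 reporter probe sets, 22549 had a symbol (20527 genes), and of 28360 in the other table, 25349 (24111 genes). The brightest probe set stood for a gene. The reporter groups were compared with limma 3.58.1 in R 4.3.3 (lmFit, eBayes with trend and robust), two-sided, with Benjamini-Hochberg adjustment over all genes, and a call was an adjusted p under 0.05. Single arrays were compared without a test, at 1.5-fold. The fit was tested on simulated data.

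Replicate numbers come from the titles, which call the samples biological replicates. Deviations from the group means correlated between same-numbered arrays at 0.653, 0.163, 0.158, 0.527 and 0.197 for numbers 1 to 5, all over 0.1. The highest correlation of each mCherry+ array with an mCherry- array of another number was -0.0112, 0.091, 0.0687, 0.242 and 0.119. Each was below the value of its own pair, but those of numbers 4 and 5 also passed 0.1, so that limit alone does not establish pairing. The numbers were taken to pair the samples and the block is given beside the results. The members, gene lists and tests were chosen with earlier results of these data known. Named genes were the 8 lowest and 6 highest members of each subunit in the reporter comparison, the 5 highest and lowest in each pair of single arrays, the members whose probe sets differed most (up to 5) or with an array apart, and, of each other list, called genes or else the 2 to 4 largest differences. Rps23, Rpl22, Rpl28, Fau, Gnb2l1, Tiparp, Ahrr, Cyp1b1 and the cell type markers fall outside this rule and were named after their values were seen. Alternatives were the block, plain eBayes, a filter on dim genes, the mean of a gene's probe sets, median centring, the series' value table, 2-fold in place of 1.5-fold, and leaving out each array. Alternatives that combine the block with another choice were chosen after seeing the data. The values of 2 members that this rule also names are counted in all totals and are not reported here one by one.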

Additional observations from a re-analysis of the deposited data

Results flagged for a closer look

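Of the 132 groups of 5 arrays that the 66 members give, 11 had an array far from the other 4, where chance flags about 1 in 20 groups. The groups share arrays and are not independent, so this count is a description. With 5 such arrays of other named genes, 16 are given here, of which 4 lay on mCherry+ array 4, and 1 more on mCherry- array 4. On mCherry+ array 4, Ahr was at 10.32 against 11.22 to 11.41 on the other mCherry+ arrays. Myc was at 8.13 against 5.96 to 6.56, Rpl21 at 11.75 against 11.41 to 11.51, and Rpl32 at 11.76 against 11.45 to 11.50. On mCherry- array 4, Clec4a4 was at 6.42 against 7.70 to 7.93 on the others of its group.

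On mCherry- array 1, 5 genes were low: Rpl10a at 11.08 against 11.60 to 11.70, Rpl7a at 10.99 against 11.15 to 11.18, Rpl8 at 10.11 against 10.60 to 10.74, Rps18 at 10.78 against 11.17 to 11.29, and Eef1g at 9.15 against 9.58 to 9.72. On mCherry- array 2, Rpl39 was high at 11.84 against 11.62 to 11.68 and Rps24 at 12.18 against 11.80 to 11.91. Rpl11 was high on mCherry- array 3, at 12.08 against 11.90 to 11.95. On mCherry+ array 5, Rpl10 was at 11.63 against 11.72 to 11.75 and Rpl38 at 11.68 against 11.83 to 11.85. Rpl10l, a dim gene, was high on mCherry+ array 2, at 4.79 against 3.85 to 4.08.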

How the results depend on the processing

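The count of 0 of 66 members called held under every alternative, with 54 to 62 members lower by sign and a median of -0.16 to -0.08. The lowest adjusted p of a member by limma was 0.0991 (Rps19, without mCherry+ array 4). The genes called over the whole table, 77, were 373 with the replicate block, 118 with dim genes left out, 38 without the arrays of number 1 and 182 with the block as well, 355 with centring and the block, 372 with the mean of probe sets and the block, and 28 to 115 with each array left out (28 without mCherry+ array 5). Called translation genes, 0, were 3 with the block, alone or with centring or the mean of probe sets, 1 with plain eBayes, 2 with dim genes left out and 0 to 1 with each array left out. The block changed no call of a member.

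Small minus large subunit on the reporter arrays, 0.002, was -0.007 with the mean of probe sets and -0.001 without number 1, each also with the block, and -0.003 to 0.009 with each array left out. On the single arrays it was -0.119 with dim genes left out and -0.029 with the mean of probe sets for Ahr KO Clec4a4- minus WT Clec4a4-, and -0.025 with the mean of probe sets for WT Clec4a4+ minus WT Clec4a4-. At 2-fold, 0 and 1 members were past the limit in Ahr KO Clec4a4- cells against WT Clec4a4- and WT Clec4a4+ cells, and with centring 2 were past 1.5-fold between the WT samples. Members near 0 changed sign: Rpl10 was -0.02 with the mean of probe sets, Rpsa 0.00 with centring, and Rpl37a 0.01 and Rps9 0.05 without number 1. With each array left out, Rpl10 lay from -0.03 to 0.02, Rpl13a -0.08 to 0.05, Rpl18 -0.17 to 0.00, Rpl37 -0.04 to 0.05, Rpl37a -0.05 to 0.01, Rpl41 -0.05 to 0.04, Rplp1 -0.04 to 0.01, Rplp2 -0.09 to 0.03, Rps20 -0.06 to 0.03, Rps9 -0.10 to 0.06 and Rpsa -0.09 to 0.05. With the mean of probe sets, Rpl39 was 0.45 and 0.73 in Ahr KO Clec4a4- cells against WT Clec4a4- and WT Clec4a4+ cells, and Rps13 0.56 against WT Clec4a4- cells. The causes of these changes were not tested.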
